A study of Mus musculus with 4 samples.

Results

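The 9 genes followed here serve the membranes around the brain and were measured in spatial transcriptomes of the mouse olfactory bulb: Ptgds, the solute transporters Slc6a13, Slc22a6 and Slc13a4, the matrix protein Mgp, and the small leucine-rich proteoglycans Dcn, Lum, Fmod and Ogn. They were taken by gene symbol from the deposited gene list, where each of the 9 had 1 row among 32285 genes. The study compared olfactory bulb of 1 control mouse with that of 1 mutant mouse, both 5 months old, on Visium slides, which carry barcoded spots that capture polyadenylated RNA from a section laid over them. The protocol, given alike for all 4 samples, is a transgenic soluble VEGFR1, a decoy that binds VEGF, switched by tetracycline through camk2a-tTA and described as specific to brain. The 2 samples of the mutant carry the label of VEGF blockade at e13.5, an embryonic stage, and those of the control carry none; the series text describes the mutant's bulb as degenerated. The control mouse filled 2 capture areas, 1 with 2 serial sections and 1 with 1 section, and the mutant mouse filled 2 capture areas with 2 sections each; all were coronal cryosections of 10 µm. The deposited matrix pools the 4 areas and marks each spot with a library number from 1 to 4, and no sample label carries that number. Control and mutant are therefore not compared here, the libraries are not treated as replicates, and each value below belongs to a library by its number. With 1 mouse in each group, no test of the genotype could be made from replicate animals in any case.

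The leptomeninges are thin sheets of fibroblasts, collagen and vessels that wrap the brain and bound the cerebrospinal fluid. Ptgds encodes lipocalin-type prostaglandin D synthase, an enzyme that makes prostaglandin D2 and also a secreted carrier of small lipophilic molecules that is abundant in cerebrospinal fluid; oligodendrocytes make it too. Slc6a13 encodes GAT2, a transporter of GABA and taurine, Slc22a6 encodes the organic anion transporter OAT1, and Slc13a4 encodes a sodium-coupled sulfate transporter, and all of them are known from meningeal barrier cells. Dcn (decorin), Lum (lumican), Fmod (fibromodulin) and Ogn (osteoglycin) encode secreted proteoglycans that bind collagen fibrils and set their spacing. Mgp encodes matrix Gla protein, a vitamin K-dependent inhibitor of calcification that vascular and fibroblast cells secrete.

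Upstream sequences are shown for Ptgds, Slc22a6, Slc13a4 and Fmod, since these are the 4 genes whose level in library 4 was highest in the same region of spots (described further on). Each is the 250 bases before the annotated start in RefSeq on GRCm38.p6, read 5′ to 3′ on the strand of the gene; 6 of the 9 genes had an entry, and Mgp, Dcn and Lum had none. Ptgds lies at chr2:25469750-25469999 on the minus strand, Slc22a6 at chr19:8617746-8617995 on the plus strand, Slc13a4 at chr6:35308127-35308376 on the minus strand and Fmod at chr1:134037004-134037253 on the plus strand. Capitals mark CCAAT and GGGCGG on either strand, so ATTGG is a CCAAT of the opposite strand.
Ptgds: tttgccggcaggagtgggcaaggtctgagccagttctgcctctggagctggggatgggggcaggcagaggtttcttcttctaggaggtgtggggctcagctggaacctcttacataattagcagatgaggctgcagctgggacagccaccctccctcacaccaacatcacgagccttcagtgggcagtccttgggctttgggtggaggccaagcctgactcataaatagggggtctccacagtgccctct
Slc22a6: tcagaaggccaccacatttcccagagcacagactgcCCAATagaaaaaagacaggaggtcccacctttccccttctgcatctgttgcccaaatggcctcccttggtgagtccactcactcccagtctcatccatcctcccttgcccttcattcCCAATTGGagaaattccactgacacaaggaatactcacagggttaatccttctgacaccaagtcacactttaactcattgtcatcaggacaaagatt
Slc13a4: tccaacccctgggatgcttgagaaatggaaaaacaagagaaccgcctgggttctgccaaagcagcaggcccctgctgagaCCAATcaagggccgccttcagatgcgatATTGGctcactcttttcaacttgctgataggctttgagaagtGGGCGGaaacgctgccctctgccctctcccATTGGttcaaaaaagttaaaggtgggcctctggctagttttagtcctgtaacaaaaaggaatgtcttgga
Fmod: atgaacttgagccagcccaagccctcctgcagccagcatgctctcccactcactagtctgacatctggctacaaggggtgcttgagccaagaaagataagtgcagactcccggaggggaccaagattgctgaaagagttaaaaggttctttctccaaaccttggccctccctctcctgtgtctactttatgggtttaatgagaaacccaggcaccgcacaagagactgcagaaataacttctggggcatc
Both transporter windows hold CCAAT 3 times, and neither the Ptgds nor the Fmod window holds it. In Slc22a6 the matches start at positions -214, -97 and -94, counted back from the base before the start as -1, and the last 2 overlap on opposite strands. In Slc13a4 they start at -170, -142 and -70, with 1 GGGCGG at -100. Of 32851 upstream windows of the same length, 33.8% hold CCAAT, 32.7% hold GGGCGG, 12.4% hold TATAAA and 3.17% hold the forkhead core TGTTTAC, searched on both strands. Over the 8 annotated starts of the 6 genes (Slc6a13 has 3), CCAAT was found in 3 windows, GGGCGG in 2, TATAAA in 1, that of Ogn, where matches on both strands overlap, and TGTTTAC in 0. The E-box CANNTG, present in 66.2% of all windows, was in 7 of the 8 and overlaps a CCAAT pair in Slc22a6.

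The 4 libraries kept between 715 and 1662 spots with at least 500 UMIs (unique molecular identifiers, each standing for 1 captured RNA molecule) and held between 5223890 and 13304973 UMIs, with a median of 7186 to 9829 UMIs in a spot. Levels are given as counts per 1000000 UMIs of the library (CPM), and 3 UMIs, used here as a floor, correspond to 0.225 to 0.574 CPM. Intervals are exact 95% intervals that cover counting error only, not differences between mice, sections or areas. Those on shares of spots take each spot as independent, though the spots of 1 library share their source, so they are too narrow to set libraries apart. Pairs of libraries shared 62 to 651 spot barcodes, which on Visium name positions of the array. The libraries also stand apart in pairs: of 9 regions of spots drawn without the 9 genes, 3 had only 7 to 18 spots in each of libraries 3 and 4, 5 had 0 to 16 spots in each of libraries 1 and 2, and 1 was spread over all 4.

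Ptgds had the most UMIs of the 9 genes in every library, and its level was highest in library 3 and lowest in library 1. It took 3079 CPM in library 1 (95% interval 3049 to 3109), 4291 CPM for library 2 (4235 to 4347), 7621 CPM for library 3 (7572 to 7669) and 5578 CPM in library 4 (5531 to 5626). No interval overlapped another, and libraries 3 and 4 both lay above libraries 1 and 2. Library 3 was 2.47-fold above library 1 (2.45 to 2.504). Fewer cells of a type and less RNA in each cell cannot be told apart in such sums.

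The other 8 genes together had 17320 UMIs against 212082 of Ptgds, and they too were lowest in library 1, with ranges of unequal size. UMIs are not divided by transcript length and capture differs between genes, so each gene is compared with itself across libraries. Summed over the 8, the level was 187 CPM in library 1, 275 CPM in library 2, 686 CPM in library 3 and 503 CPM in library 4, a 3.66-fold range (3.504 to 3.83). Over the 9 genes, 7 had a highest library over 2-fold above the lowest. Among 13418 genes with at least 100 UMIs, 14.7% did so, and 10.7% did so with the highest level in library 3 or 4, as all 7 had; the median ratio over those genes was 1.3.

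Slc13a4 and Slc6a13 had the smallest ranges of the 9 genes. Slc6a13, the GABA and taurine transporter, was at 27.1, 39.8, 51.6 and 46.5 CPM in libraries 1 to 4, and library 3 was 1.90-fold above library 1 (1.67 to 2.17). Slc13a4, the sulfate transporter, was at 20.7, 31.4, 37.5 and 28.4 CPM, a range of 1.81-fold (1.55 to 2.11). Slc22a6, the organic anion transporter, was at 10.2, 15.9, 26.6 and 19.2 CPM, a range of 2.60-fold (2.12 to 3.20). All 3 were lowest in library 1 and had their highest level in library 3, though Slc6a13 did not differ between libraries 3 and 4 beyond counting error, at a ratio of 1.11 (0.983 to 1.26). The intervals of libraries 2 and 4 overlapped for each of them. Without the 5% of spots that held most of the gene, the range was 2.83-fold for Slc6a13, then highest in library 4, and 3.42-fold for Slc13a4. Those spots held 93.4% of the Slc22a6 UMIs of library 1, so too few were left for a range. Leaving out library 1 brought Slc22a6 to 1.67-fold. Slc13a4 was the 1 gene of the 9 whose library 4 level lay below library 2, at 0.905 times it (0.743 to 1.11), so these neighbours in its order do not differ beyond counting error.

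Mgp had the widest range of the 9. It was at 43.8 CPM in library 1 (40.3 to 47.5), 71.4 CPM for library 2 (64.3 to 79.0), 327 CPM for library 3 (317 to 338) and 186 CPM in library 4 (178 to 195). The intervals are all separate, and library 3 was 7.47-fold above library 1 (6.85 to 8.16). Without library 3 the range of Mgp was 4.25-fold, and without library 1 it was 4.59-fold. Mgp took more of the UMIs of the 8 genes in libraries 3 and 4 than in libraries 1 and 2. Its share was 23.4% in library 1, 26.0% in library 2, 47.7% in library 3 and 37.1% in library 4, as the plot of the make-up of the 8 genes shows.

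**Figure D1:**
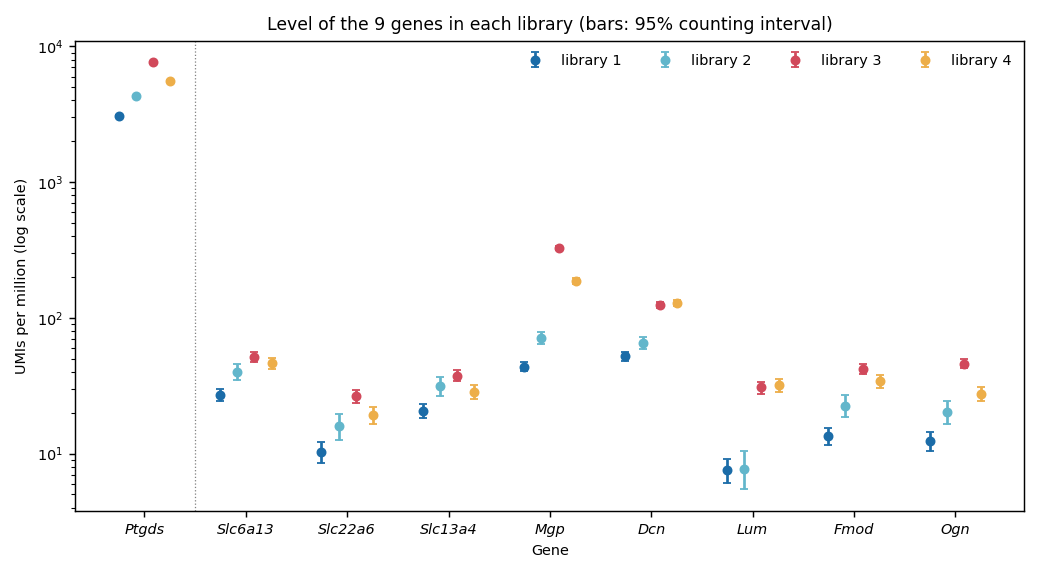
CPM of each gene (log axis) in libraries 1 to 4, with bars for the exact 95% counting interval; Ptgds is set apart on the left. Every gene was lowest in library 1, and Mgp spread furthest, from 43.8 to 327 CPM.

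All 4 proteoglycans were higher in libraries 3 and 4 than in libraries 1 and 2. Dcn was at 52.2, 65.5, 124.5 and 128.5 CPM in libraries 1 to 4, and Lum was at 7.52, 7.66, 30.7 and 31.9 CPM. For both genes libraries 3 and 4 did not differ beyond counting error, with a ratio of library 3 to library 4 of 0.969 for Dcn (0.899 to 1.05) and 0.963 for Lum (0.827 to 1.12). Fmod was at 13.4, 22.6, 41.8 and 34.3 CPM and Ogn at 12.3, 20.3, 46.1 and 27.6 CPM. Summed over all spots, both were higher in library 3 than in library 4, by 1.22-fold for Fmod (1.06 to 1.40) and 1.67-fold for Ogn (1.44 to 1.94). The range from lowest to highest library was 2.46-fold for Dcn, 4.24-fold for Lum, 3.12-fold for Fmod and 3.74-fold for Ogn. Without the 5% of spots that held most of the gene it was 3.94-fold for Dcn, and Fmod was then highest in library 4. In library 1 those spots held 87.1% of the UMIs of Fmod, 86.0% of Ogn and all of Lum, so no range is given for them. Without library 1 the range of Fmod was 1.85-fold and that of Ogn 2.27-fold, and without library 3 that of Ogn was 2.24-fold.

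Libraries 1 and 2 also differed from each other. Library 2 lay above library 1 with an interval wholly above 1 for 8 of the 9 genes, against 8.54% of the 13418 genes tested in the same way. The ratio was 1.39 for Ptgds (1.37 to 1.42) and between 1.26 for Dcn and 1.69 for Fmod over 7 others. Lum was the exception, at 1.02 (0.688 to 1.48). The transporters counted for less beside the proteoglycans in libraries 3 and 4: per UMI of the 4 proteoglycans there were 0.680 UMIs of the 3 transporters in library 1 (0.620 to 0.746), 0.751 for library 2 (0.663 to 0.849), 0.476 for library 3 (0.447 to 0.507) and 0.423 in library 4 (0.391 to 0.458).

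**Figure D2:**
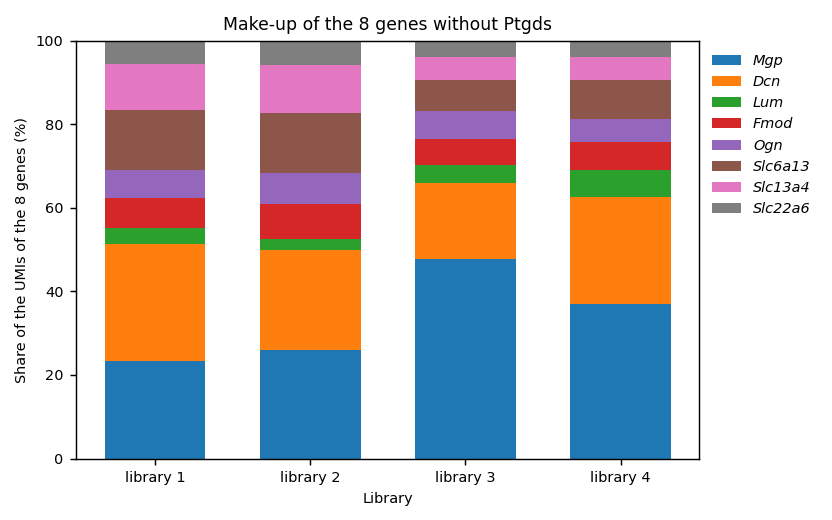
Share of the UMIs of the 8 genes without Ptgds that each gene took in libraries 1 to 4 (percent, bars from 0 to 100). Mgp took 23.4% and 26.0% in libraries 1 and 2 and 47.7% and 37.1% in libraries 3 and 4, while Slc6a13 took 14.5% in libraries 1 and 2 and 7.52% and 9.24% in libraries 3 and 4.

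Over single spots, Ptgds was found nearly everywhere and was concentrated all the same. At least 1 UMI of it was counted in 89.8% of spots in library 1, 88.5% in library 2, 98.1% in library 3 and 98.7% in library 4. In spots thinned to 2000 UMIs, which removes the effect of depth (20 to 233 shallower spots left out of a library), the shares were 72.6%, 75.4%, 88.4% and 87.6%. The median spot had 715 and 761 CPM of Ptgds in libraries 1 and 2 and 1740 and 1743 CPM in libraries 3 and 4. The 5% of spots with most Ptgds held 58.3%, 55.5%, 50.7% and 40.4% of its UMIs in libraries 1 to 4, with 4.38% to 5.58% of all UMIs, and the highest single spot had 2569 UMIs, in library 3.

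The other 8 genes were sparser, and the number of spots that held them set libraries 3 and 4 apart. Any of the 8 was counted in 39.8% of spots in library 1 (37.4 to 42.2), 43.2% for library 2 (39.6 to 46.9), 70.6% for library 3 (68.0 to 73.1) and 73.5% in library 4 (70.5 to 76.3). In thinned spots these shares were 22.0%, 25.4%, 42.2% and 42.5%, so libraries 3 and 4 stayed above libraries 1 and 2 at equal depth. Mgp was the most widespread of them, in 55.2% and 53.9% of spots in libraries 3 and 4 and 21.0% and 25.7% in libraries 1 and 2. Lum was the rarest in libraries 1 and 2, in 4.81% and 5.17% of spots, and Slc22a6 the rarest in libraries 3 and 4, in 13.9% and 13.0%. A spot with 0 UMIs of a gene at these depths may still hold its RNA, and RNA that spread from elsewhere on the section can give single UMIs; neither was tested.

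Spots rich in the 8 genes were rich in Ptgds. In spots with 10 or more UMIs of the 8, Ptgds stood at 43815 CPM in library 1, 45005 in library 2, 29445 in library 3 and 20844 in library 4. In spots with 0 UMIs of the 8 it stood at 703, 745, 1104 and 1118 CPM. Such spots held 12.4% and 8.35% of the Ptgds UMIs of libraries 1 and 2 and 3.34% and 4.51% of those of libraries 3 and 4. The classes with most of the 8 were larger in libraries 3 and 4, at 18.9% and 16.5% of spots, than in libraries 1 and 2, at 3.55% and 5.31%, whereas the Ptgds level in that class was higher in libraries 1 and 2. Thinned to 2000 UMIs, spots with 2 or more UMIs of the 8 had 26271, 32679, 26998 and 20761 CPM of Ptgds, and the intervals of libraries 1 and 3 then overlapped.

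**Figure D3:**
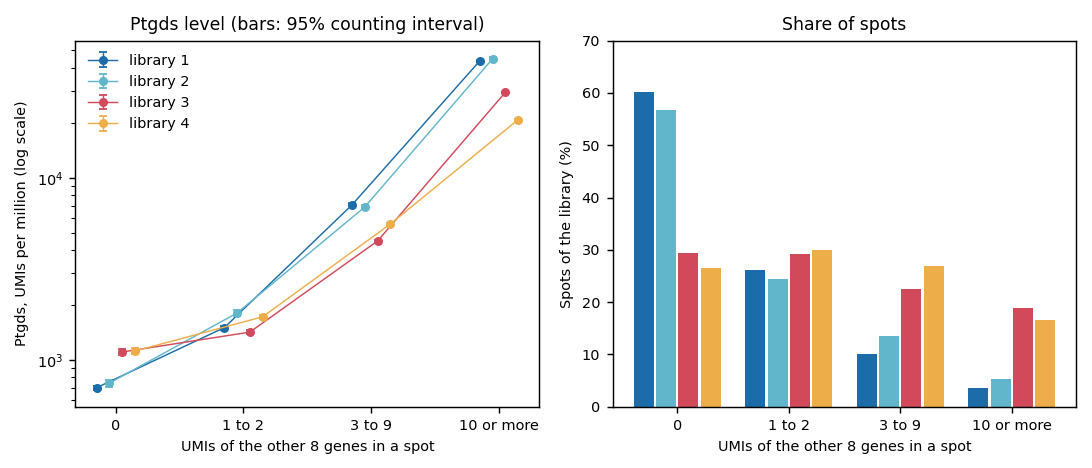
Left, Ptgds level (CPM, log axis, bars for the 95% counting interval) in spots grouped by how many UMIs of the other 8 genes they held; right, share of each library's spots in each class (percent). Ptgds lay at 703 to 1118 CPM in spots with 0 and at 20844 to 45005 CPM in spots with 10 or more.

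In spots without any UMI of the 8 genes, the Ptgds level moved with other cell markers. When these spots were split evenly into 3 classes by the summed level of 8 ensheathing glia markers, Ptgds in libraries 1 to 4 was at 448, 544, 738 and 888 CPM in the lowest class and 1112, 1242, 1626 and 1602 CPM in the highest. Split by 8 oligodendrocyte markers, it was at 636, 730, 955 and 981 CPM in the lowest class and 823, 902, 1521 and 1476 CPM in the highest. Over all thinned spots, not only these, the rank correlation of Ptgds with the summed oligodendrocyte markers was near 0. It was 0.064, -0.109, -0.085 and 0.052 in libraries 1 to 4. With 7 astrocyte markers, Ptgds went from 490, 486, 1012 and 807 CPM to 825, 945, 1290 and 1346 CPM. The middle class did not always lie between, as for oligodendrocyte markers in library 2, at 678 CPM. Depth differed as well: by oligodendrocyte markers in library 1, the median spot had 9685.5 UMIs in the lowest class and 2724 in the highest. Split by 5 neuron markers the order turned, from 1048, 1208, 1477 and 1766 CPM in the lowest class to 444, 456, 848 and 829 CPM in the highest. Split by 15 leptomeningeal fibroblast markers, it went from 590, 589, 924 and 796 CPM to 903, 979, 1511 and 1550 CPM. The part of these cells in the Ptgds level was not tested.

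Across the spots of 1 library, thinned to 2000 UMIs, Ptgds and the sum of the 8 had a Spearman correlation of 0.497, 0.526, 0.615 and 0.574 in libraries 1 to 4, over 626 to 1429 spots that share their library. Of the single genes, Mgp was nearest to Ptgds in libraries 2, 3 and 4, with 0.516 in library 3, and Dcn in library 1, at 0.407. Lum was furthest in libraries 2, 3 and 4, at 0.182 to 0.216, and Fmod in library 1, at 0.182. The nearest gene was also the one of the 8 found in most thinned spots. Those shares were 11.3%, 28.5% and 26.2% for Mgp in libraries 2, 3 and 4 and 9.52% for Dcn in library 1. Lum was in 2.72%, 5.82% and 6.28% and Fmod in 2.59%, though Slc22a6 was in fewer than Lum, at 2.08%, 4.63% and 4.55%. The part of sparse counts in this order was not tested. Among the 8 themselves the counts are sparse and the correlations low, from -0.03 for Lum and Fmod in library 2 to 0.45 for Slc13a4 and Fmod in the same library; they are given as a description only.

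Among the 10 genes whose spot pattern was most like Ptgds were Apod, Apoe, Ptn, Selenop, Vtn, Igf2, S100a5, Scgb1c1 and Ifitm3, with a lowest correlation over the 4 libraries from 0.505 for Apod to 0.269 for Ifitm3. Among the 10 most like the sum of the 8 were Apod, Apoe, Igf2, S100a5, Ptn, Ifitm3, Scgb1c1, Bgn and Gjb2, from 0.459 for Apod to 0.269 for Gjb2. The median of the same measure over 9425 genes was -0.05 for both. The lists share 7 names, among them Apod and Apoe, which encode lipid-carrying apolipoproteins, and Igf2, a growth factor of meninges and vessels. Apod is also an ensheathing glia marker here, and Igf2 a leptomeningeal fibroblast marker. In thinned spots, Ptgds had a rank correlation of 0.582, 0.575, 0.517 and 0.475 with the summed ensheathing glia markers, by library number. With the summed leptomeningeal fibroblast markers it was 0.394, 0.450, 0.573 and 0.582, so neither list was nearer in every library. Which cells gave the shared pattern was not tested.

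The spots were grouped by the genes that vary most among them, with 160 genes kept out, the 9 and those of every list used here, and each region is called by the gene of highest fold in it. Those names label clusters of spots, each of which holds several cells, and are not cell types. The levels of the 9 genes were highest in 3 regions. The region led by Lcn11, a lipocalin gene, held 229 spots of library 1 and 75 of library 2. Its next genes by fold were Mup4, Obp1b, Obp1a and Bpifb9b. The region led by Mmp12, a macrophage elastase, held 276 spots of library 3 and 178 of library 4. After Mmp12 came Ces1a, Bpifb6, Gpx6 and Bpifb4. The region led by Fmod itself, followed by Col1a1, Ptgds, Igf2 and Slc13a4, held 164 and 160 spots of libraries 3 and 4.

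Ptgds was at 18012 CPM in the Lcn11 region of library 1 and 31415 CPM in that of library 2. In the Mmp12 region it was at 22283 CPM in library 3 and 11413 CPM in library 4, and in the Fmod region at 17033 and 19233 CPM. By contrast, the region led by Grm4, found in all libraries with a median of 2918 UMIs in a spot, had 655, 510, 1176 and 872 CPM. The Lcn11 region held 61.2% and 59.7% of the Ptgds UMIs of libraries 1 and 2 in 13.8% and 10.5% of their spots. The larger Nppa region, with 39.2% and 36.1% of their spots, held 30.2% and 32.6% of Ptgds UMIs at 1938 and 3226 CPM, below the rest of the library. In library 3 the Mmp12 region held 60.9% and the Fmod region 22.4% of Ptgds UMIs, and in library 4 the order was turned, with 34.5% and 41.7%.

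**Figure D4:**
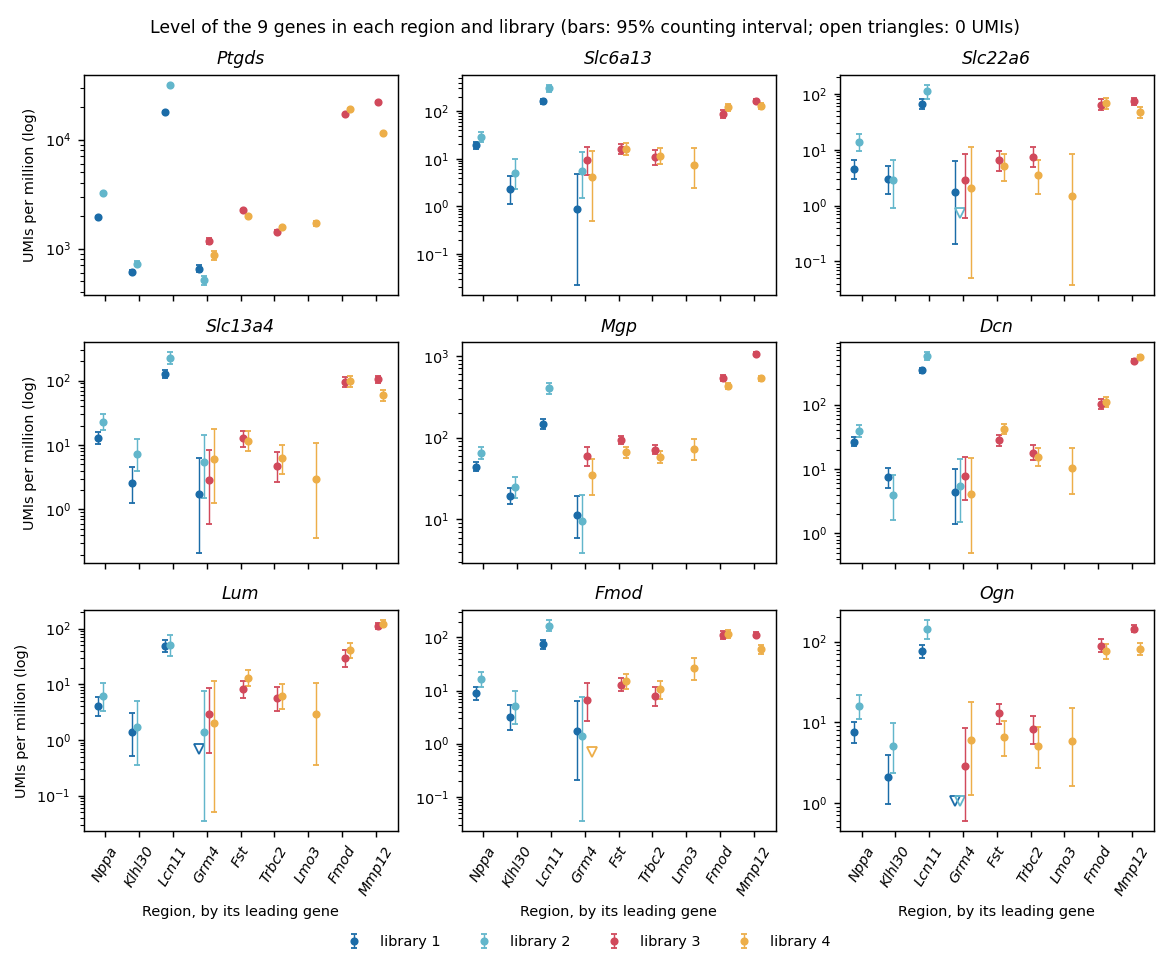
CPM (log axis, bars for the 95% counting interval) of each gene in every region with at least 30 spots of a library, coloured by library. In libraries 1 to 3 each of the 9 genes was highest in 1 region, Lcn11 or Mmp12, and in library 4 the highest level was in the Mmp12 region for 5 genes and in the Fmod region for 4.

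All 9 genes were over 2-fold above the rest of their library in the Lcn11 region of library 1, where 11.1% of genes with at least 20 UMIs were, and in that of library 2, where 10.3% were. The same held for all 9 in the Mmp12 region of library 3 and of library 4, against 15.2% and 13.8% of genes. In the Fmod region 5 of the 9 were over 2-fold above the rest in library 3 and 7 in library 4, against 1.76% and 3.04% of genes. Dcn and Lum were the 2 genes below that mark in the Fmod region of both libraries, with ratios to the rest of 0.810 and 0.833 for Dcn and 0.956 and 1.33 for Lum.

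The transporters were high where Ptgds was high. In the Lcn11 region Slc6a13 stood at 162 CPM (library 1) and 305 CPM (library 2). Its Mmp12 region level was 161 CPM for library 3 and 128 CPM for library 4, beside 88.5 and 120 CPM in Fmod spots; only library 3 differed beyond counting error. Slc22a6 was at 66.1 and 110 CPM for Lcn11 spots, 73.2 and 47.2 CPM for Mmp12 spots and 63.8 and 68.5 CPM for Fmod spots. For Slc13a4 the values were 128 and 223 CPM, 105 and 59.0 CPM, and 94.9 and 97.1 CPM, given in the same order. In library 4 Slc22a6 and Slc13a4 were lower in the Mmp12 region than in the Fmod region, at 0.689 (0.496 to 0.956) and 0.608 times it (0.457 to 0.806), as Ptgds was, at 0.593 (0.582 to 0.605), and Fmod, at 0.506 (0.385 to 0.661).

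Mgp reached its highest level, 1057 CPM, in the Mmp12 region of library 3, where 1 spot had 212 of its UMIs. It was at 532 CPM in the Mmp12 region of library 4, at 533 and 425 CPM in the Fmod region and at 146 and 404 CPM in the Lcn11 region of libraries 1 and 2. In library 1 the Nppa region held more of the Mgp UMIs than the Lcn11 region, 48.5% against 34.8%, at 44.3 CPM; in library 2 it held 39.7% against 46.1%. Mgp was the gene with the smallest ratio to the rest in the Lcn11 region of both libraries, at 4.57 and 9.64, where the other 8 lay between 12.3 and 27.6.

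Among the proteoglycans, Dcn and Lum parted from Fmod and Ogn. Dcn was at 476 CPM in the Mmp12 region of library 3 and 558 CPM in that of library 4, but at 103 and 109 CPM in the Fmod region, a ratio of 4.63 (3.86 to 5.60) and 5.11 (4.23 to 6.20). Lum was at 112 and 122 CPM in the Mmp12 region and 29.5 and 40.8 CPM in the Fmod region, a ratio of 3.78 (2.68 to 5.48) and 3.003 (2.17 to 4.22). Fmod was nearly level in library 3, at 113 and 110 CPM, and Ogn was at 145 against 89.3 CPM there and at 81.4 against 76.3 CPM in library 4.

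Over all genes with at least 20 UMIs in the 2 regions, 12.6% in library 3 and 10.4% in library 4 were over 2-fold higher in the Mmp12 region than in the Fmod region; of the 9 genes, Dcn and Lum were, in both libraries. Relative to the 6 other genes without Ptgds, Dcn and Lum together were 2.63 times as high in the Mmp12 region as in the Fmod region for library 3 (2.21 to 3.14) and 4.52 times in library 4 (3.77 to 5.44). This comparison was chosen with earlier results of these data known, and the 6 others include Fmod, which leads the Fmod region. The intervals cover counting error only and do not test the split. Dcn and Lum made 26.2% and 42.8% of the UMIs of the 8 genes in the Mmp12 region and 11.9% and 14.2% in the Fmod region. In the Lcn11 region of libraries 1 and 2 their share was 37.5% and 31.5%. The contrast was smaller when coarser regions were drawn, 1.60 in library 3 and 2.22 in library 4, and was 1.43 in library 3 when regions were drawn without library 4.

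**Figure D5:**
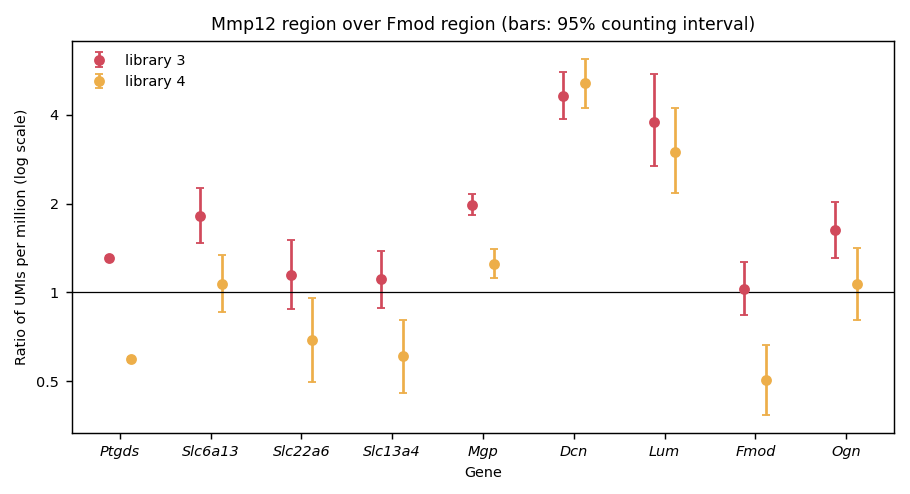
Ratio of each gene's level in the Mmp12 region to its level in the Fmod region (log axis, bars for the 95% interval) in libraries 3 and 4. Dcn and Lum lie at 3.003 to 5.11 in both libraries, while Ptgds, Slc22a6, Slc13a4 and Fmod lie below 1 in library 4.

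The same region also differed between libraries. In the Mmp12 region, library 3 was above library 4 by 1.95-fold for Ptgds (1.92 to 1.99), 1.99-fold for Mgp (1.84 to 2.15), 1.90-fold for Fmod (1.51 to 2.42), 1.78-fold for Ogn and Slc13a4, 1.55-fold for Slc22a6 and 1.26-fold for Slc6a13 (1.06 to 1.497). Dcn went the other way, at 0.854 (0.783 to 0.931), and Lum did not differ beyond counting error, at 0.911 (0.758 to 1.10). Over 1.5-fold above library 4 there were 6 of the 9 genes, against 5.7% of genes with at least 20 UMIs in that region. In the Fmod region the libraries lay closer, from 0.724 for Lum (0.457 to 1.14) to 1.25 for Mgp (1.11 to 1.41), with Ptgds at 0.886 (0.869 to 0.902). In the Lcn11 region library 2 was above library 1 by 1.74-fold for Ptgds, 2.77-fold for Mgp and 1.66-fold for Dcn, and Lum was at 1.06 (0.622 to 1.73).

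For each UMI of the other 8 genes there were 17.2 and 15.9 UMIs of Ptgds in the Lcn11 region of libraries 1 and 2, 9.94 and 7.19 in the Mmp12 region and 15.3 (library 3) and 18.2 (library 4) in Fmod spots. Of these regions the Mmp12 region had the least Ptgds for its amount of the other genes; in library 3 the Trbc2 region was at 10.6 (9.63 to 11.8), which overlaps its interval of 9.67 to 10.2. For each UMI of the 4 proteoglycans, the transporters had 0.401 UMIs (0.371 to 0.434) in the Mmp12 region and 0.745 (0.641 to 0.865) in the Fmod region of library 3, and 0.285 (0.254 to 0.320) and 0.829 (0.714 to 0.962) in library 4.

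Slc6a13 and Slc22a6 each lie beside a paralog on their chromosome. Slc6a12, a betaine and GABA transporter next to Slc6a13, was at 5.19, 7.85, 4.95 and 3.99 CPM in libraries 1 to 4, so it was highest in library 2 where Slc6a13 was highest in library 3. Its ratio to the rest was 14.2 and 40.0 in the Lcn11 region, 7.99 and 6.08 in the Mmp12 region and 1.94 and 2.60 in the Fmod region. Slc6a12 had only 69, 41, 62 and 38 UMIs in libraries 1 to 4, so these ratios rest on few UMIs, and no interval was computed for them. Slc22a8, which encodes the organic anion transporter OAT3 next to Slc22a6, was at 23.4, 32.5, 37.7 and 25.6 CPM, and was higher in the Fmod region of library 4, at 4.48 times the rest, than in its Mmp12 region, at 2.14 times, as Slc22a6 was. Paralogs of near sequence can share reads in counting, which was not tested.

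The proteoglycans have relatives beside them too. Prelp, next to Fmod, was at 13.4, 14.7, 38.4 and 34.5 CPM, and Omd, next to Ogn, at 1.35, 4.403, 11.5 and 5.98 CPM. Both were higher in library 3 than in libraries 1 and 2, and Prelp did not differ beyond counting error between libraries 1 and 2 or between libraries 3 and 4. Kera, next to Lum, had 0 UMIs in every library, which allows up to 0.225 to 0.574 CPM. Of the 13 other genes of the family, 6 had at least 100 UMIs and 5 of those were over 2-fold higher in the highest library, library 3 for all 5. Among all genes with at least 100 UMIs, 14.7% were over 2-fold. Bgn, which encodes biglycan and is the family's closest relative of Dcn, was at 32.8, 37.7, 93.4 and 72.3 CPM. Bgn was 8.99 and 8.81 times the rest in the Mmp12 region and 0.794 and 1.08 times in the Fmod region, in the manner of Dcn. Of the 13 genes, those with at least 20 UMIs were over 2-fold above the rest in 7 of 7 and 5 of 5 cases in the Mmp12 region. In the Fmod region 1 of 7 and 2 of 5 were. The shares of all genes were 15.2% and 13.8% in the Mmp12 region and 1.76% and 3.04% in the Fmod region.

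Genes that make, break down or sense prostaglandins numbered 22. Of these, 14 had at least 100 UMIs and 8 of those were over 2-fold higher in the highest library, 6 in library 3 and 2 in library 4. Among all genes with at least 100 UMIs, 14.7% were. The 3 with most UMIs were close to level: Ptges3 was at 131, 125, 126 and 119 CPM, Ptges2 at 56.4, 55.9, 48.3 and 51.0 CPM, both being prostaglandin E synthases, and Hpgd, which inactivates prostaglandins, at 23.4, 20.9, 23.6 and 19.1 CPM. Ptgdr, a receptor of prostaglandin D2 named here after its values were seen, was at 1.58, 1.53, 7.34 and 4.82 CPM, and the other receptor, Ptgdr2, had 0 UMIs.

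Other solute carriers of barrier cells and other genes of calcification are given by their counts. Of 15 barrier carriers 5 were over 2-fold higher in the highest library, and the 3 with most UMIs, Slc38a2, Slc4a4 and Slc23a2, ranged 1.35-fold, 1.38-fold and 1.23-fold. Of 11 matrix and Gla genes 3 were, with Spp1, which encodes osteopontin, at 143, 133, 331 and 242 CPM. Gas6, a Gla protein like Mgp, ranged 1.06-fold and Ank, a pyrophosphate transporter, 1.01-fold. These counts stand against 14.7% of all genes and were not compared by a test.

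The meningeal label was checked against 15 leptomeningeal fibroblast markers, none of them at 0 in any library. Their summed level was 258, 304, 683 and 583 CPM in libraries 1 to 4. In the highest library 12 of the 15 were over 2-fold higher, 10 in library 3 and 2 in library 4, against 14.7% of all genes with at least 100 UMIs. Col1a1, a fibrillar collagen, went from 10.0 and 11.7 CPM in libraries 1 and 2 to 91.8 and 83.4 CPM in libraries 3 and 4, while Islr, Pdgfra and Aldh1a2 were the 3 that stayed under 2-fold. In the regions, 14 of 14 and 12 of 12 markers with at least 20 UMIs were over 2-fold above the rest in the Lcn11 region of libraries 1 and 2, and 15 of 15 in the Mmp12 region of both libraries. In the Fmod region 7 of 15 were in library 3 and 10 of 15 in library 4.

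Markers of other cells moved with the same regions, so the 9 genes do not stand there alone. The summed level of 8 ensheathing glia markers in the Lcn11 region was 6720 and 8715 CPM, against 1196 and 1159 CPM in the rest, and in the Mmp12 region 6598 and 7116 CPM against 1159 CPM in both; in the Fmod region it was 1965 and 2206 CPM against 2328 and 2159 CPM. Nasal mucosa markers stood at 5421 and 1249 CPM in the Lcn11 region against 185 and 33.8 CPM. There 7 of 7 and 4 of 4 were over 2-fold. In the Mmp12 region of library 3 these markers stood at 211.9 CPM against 45.5 CPM, with 4 of 4 over 2-fold. In that of library 4 they stood at 356.6 CPM against 134.8 CPM, with 4 of 5 over 2-fold. In the Fmod region 1 of 4 in library 3 and 2 of 5 in library 4 were over 2-fold. Red blood cell genes were at 3609 and 4147 CPM in the Lcn11 region against 545 and 337 CPM in the rest. In the Mmp12 region they were at 4047 and 2652 CPM against 801 and 1033 CPM, and in the Fmod region at 2625 and 3543 CPM against 1349 and 999 CPM. Mural cell markers, of the vascular cells that can secrete Mgp, stood at 618 and 857 CPM in the Lcn11 region against 177 and 180.1 CPM, at 508 and 401 CPM in the Mmp12 region against 125 and 158 CPM, and at 320 and 380 CPM in the Fmod region against 191 and 174 CPM. Choroid plexus genes stood at 93.4 and 183 CPM in the Lcn11 region against 15.3 and 23.1 CPM, at 553 and 393 CPM in the Mmp12 region against 61.97 and 60.95 CPM, and at 96.5 and 115 CPM in the Fmod region against 172 and 117 CPM. These markers were thus above the rest in the Lcn11 and Mmp12 regions, as the 9 genes were. Oligodendrocyte markers, whose cells make Ptgds, were at 5482 CPM in the Fmod region of library 4 against 1694 CPM in the rest, and at 1632 against 1870 CPM in that of library 3. Neuron markers fell short of the rest, with 5 of 5 and 4 of 5 at under 0.5 times it in the Mmp12 region. The share of all genes under that mark was not computed.

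Across whole libraries, choroid plexus genes summed to 23.4, 36.2, 164 and 117 CPM, with Aqp1, which other cells express too, at 13.8, 23.4, 145 and 92.1 CPM; Ttr, the defining transcript of that epithelium, was at 0.601, 2.11, 4.15 and 7.97 CPM. Red blood cell genes summed to 865, 647, 1477 and 1306 CPM, nasal mucosa genes to 732, 133, 80.2 and 172 CPM, and ensheathing glia genes to 1774, 1776, 2292 and 2165 CPM. Endothelial genes went from 312 and 283 CPM to 249 and 246 CPM, with 0 of 7 over 2-fold. The part of these cells, and of which tissue each section took in, in the levels of the 9 genes was not tested.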

How the data were processed

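The authors deposited 1 matrix of UMI counts pooled over 4 Visium libraries, with 32285 genes and 4713 spots; its header names Space Ranger 1.3.1 as the software; the submitters' processing notes name GRCm39. Library numbers match no sample label, so no groups were compared and no test, mean or SD is given. Spots under 500 UMIs (97) were set aside, counts were summed and divided by the library's UMIs, and exact Poisson, conditional binomial or Clopper-Pearson 95% intervals were computed (scipy 1.17.1); UMIs of one library share its amplification. Rank correlations used spots thinned to 2000 UMIs. Regions came from Leiden clustering (leidenalg 0.10.2, 2000 variable genes, 30 components, 15 neighbours, resolution 0.8) without the members and listed genes, in pairs with a library of at least 30 spots. Doublets were not called. The steps were tested on simulated data. Members, lists and regions' comparisons were chosen with earlier results of these data known. Named were all 9 members, the 3 most abundant genes and members' neighbours in each list, and the 10 genes most alike by lowest rank correlation, of which some are not reported here; other named genes were chosen after their values were seen. Upstream windows are from RefSeq on GRCm38.p6, used for sequence and gene order only.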

Additional observations from a re-analysis of the deposited data

Results flagged for a closer look

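The 97 spots under 500 UMIs, which no level above uses, held 38 UMIs of Ptgds among 27613 UMIs in all, above the floor of 3 UMIs. That is 1376 CPM (974 to 1889). Of the other genes, Slc6a13 had 2 UMIs there, Mgp had 1 and the remaining 6 had 0.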

How the results depend on the processing

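The range of Ptgds over libraries, 2.47-fold, was 2.44-fold in spots with at least 2000 UMIs, 2.43-fold without mitochondrial and haemoglobin genes, 1.98-fold with each spot weighing alike and 2.96-fold without the 5% of spots with most Ptgds. For the other 8 summed, 3.66-fold became 2.80-fold with each spot weighing alike and 4.56-fold without those top spots. Leaving out each library gave 1.78 to 2.47 for Ptgds, 1.32 to 1.81 for Slc13a4 and 2.5 to 3.66 for the 8. Of 71 alternatives for single genes, 48 stayed within the counting interval, 22 moved and 1 left libraries 3 and 4: without library 3, Slc13a4 was highest in library 2, at 1.51-fold. Leaving out a library that was neither a gene's highest nor its lowest cannot change its range. Such alternatives are among the 48 by design and say nothing on how firm the range is. With all libraries kept, the highest one changed from 3 to 4 for Slc6a13 with each spot weighing alike (1.62-fold) and without the top spots (2.83-fold), and for Fmod without the top spots; Lum was lowest in library 2 with each spot weighing alike (3.76-fold). The highest level was in library 3 or 4 in 70. The median correlation of Ptgds with the 8, 0.550, was 0.640 in spots thinned to 5000 UMIs and 0.672 without thinning. All 36 highest regions of a gene in a library were over 2-fold above the rest at each resolution and with genes centred within libraries. Drawn without library 1 it was 18 of 27, without library 3 24 of 27, and without library 2 or 4 27 of 27. Those regions were picked by the same level that is scored. The share of all genes that would pass in this way was not computed, so the counts are a description only. Dcn and Lum against the 6 others gave 2.63 in library 3, then 1.60 at resolution 0.4, 3.67 with centred genes and 1.43 to 3.76 leaving out a library. In library 4 the value 4.52 became 2.22 at resolution 0.4, 3.48 at resolution 1.2, 5.51 with centred genes and 3.72 to 5.85 leaving out a library. The share of genes over 2-fold, 14.7%, was 7.92% among genes with at least 500 UMIs. The causes were not tested. No paired analysis was possible because the library numbers match no sample label. Depth limits Lum and Slc22a6 most, found in under 8% of spots in libraries 1 and 2.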
